A study of Mus musculus with 12 samples.

Results

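The genes described here encode AMPA receptor subunits and proteins that bind the receptor. They were taken by gene symbol from the deposited list of poly(A) sites (PASs), and all 9 named genes, *Gria1*, *Gria2*, *Gria3*, *Gria4*, *Cacng2*, *Cacng3*, *Cacng8*, *Cnih2* and *Grip1*, were found, with 54 of the 56204 entries of the list. The list came from 12 libraries of hippocampal mini-slices of C57BL/6 mice, from which the dentate gyrus had been trimmed. The mice were 3 months old by the labels. The study's methods describe them as male and give an age range that ends at 3 months. LTP was induced chemically with 50 µM forskolin for 5 min and then for 5 min with 30 mM KCl and 10 mM calcium added to the forskolin, while control slices of the same animals received 0.2% DMSO for 10 min, and slices were frozen 1 hr or 3 hr later, with 3 libraries in each of the 4 groups. The paper excluded a control 3 hr library from its APA analysis as an outlier by sample clustering. Whether any listed site rested on that library was not examined. The list is common to all libraries. The 12 columns of read numbers beside it have names that match no sample label, so none of them was used, and the results below are positions and labels of PASs, with no expression level, no comparison of LTP with control slices and no replicate error.

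AMPA receptors are tetramers that carry most of the fast excitatory current at hippocampal synapses, and their number at the synapse grows during LTP. *Gria1* to *Gria4* encode the pore-forming subunits GluA1 to GluA4. *Cacng2* (stargazin), *Cacng3* and *Cacng8* encode transmembrane AMPA receptor regulatory proteins, which control trafficking and gating, *Cnih2* encodes a cornichon protein that binds the receptor and slows its deactivation, and *Grip1* encodes a PDZ scaffold that binds the C-terminal tails of GluA2 and GluA3. Where a gene has several PASs, their choice sets the end of the mRNA. A choice among PASs of the 3′-most exon alters the 3′UTR, and a PAS in an intron gives a transcript that lacks the exons downstream of it.

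A PAS is marked by a hexamer a short way upstream of the cleavage position, most often AAUAAA or AUUAAA. The submitters' processing notes name the genome build mm9. No sequence of that build was at hand, so the bases at the listed positions were not read, and the signals shown are from the ends of the members' annotated transcripts in GENCODE M21 (GRCm38), read by transcript name. For each gene, the longest protein-coding transcript with AATAAA or ATTAAA on its sense strand in its last 40 nt was taken, and the 30 nt that hold the hexamer are given 5′ to 3′ as DNA, with the hexamer in capitals.
Gria1: cacaagaATTAAAtcactgtggacccatta
Gria2: gacatttgaAATAAAcattttttctattgt
Gria3: cattttgtaAATAAAattgtaaagaaagca
Gria4: tgtaggtgcttAATAAAtatttgttgaatg
Cacng2: acatgaAATAAAgatttttttttatagctt
Cacng3: cgtgttATTAAAggtttttgccttgtaacc
Cacng8: aggtagtAATAAAgtgttgttagctgcctg
Cnih2: aaatatgAATAAActactgaaaacacacaa
Grip1: aaatggAATAAAcggtgattttaaaagcca

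The hexamer was AATAAA in 7 of these transcripts and ATTAAA in the other 2, those of *Gria1* and *Cacng3*. It began 19 to 28 nt before the annotated end. Of the 34 protein-coding transcripts annotated for the 9 genes, 16 (47.1%) held either hexamer in that window, against 48.7% of the 58797 protein-coding transcripts of the annotation. The transcript of *Cacng8* with a signal is the shortest of those shown, at 535 nt, and the other 2 protein-coding transcripts of that gene held neither hexamer there. The longest protein-coding transcript of *Gria2*, at 10371 nt, also held neither, and the one shown has 4026 nt. These matches are a description of the annotation, and whether the listed PASs use these signals was not tested.

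The number of listed PASs per gene ran from 1 to 20 among the members, with a median of 3, against a median of 2 over the 16627 genes of the list. *Grip1* had 20, *Gria3* 11 and *Cacng2* 10. *Gria1*, *Gria2* and *Cacng8* had 3 each, *Gria4* had 2, and *Cacng3* and *Cnih2* had 1 each. A gene with 20 or more PASs was uncommon in the list, with 45 such genes (0.271%), whereas 4.14% of the genes had as many as *Gria3* or more and 5.42% as many as *Cacng2* or more. In all, 7 of the 9 members had 2 or more PASs, where 67.1% of all listed genes did. The subunit genes were thus not alike, since *Gria3* alone held 11 of the 19 PASs of *Gria1* to *Gria4*.

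By region label, 18 of the 54 PASs were labelled exon3, taken as the 3′-most exon, and 28 had an intronic label, 26 as intron_Comp and 2 as intron_Skip. From their names, intron_Comp was taken as a composite terminal exon, in which an exon runs on into the intron, and intron_Skip as a terminal exon that is otherwise skipped. A further 7 were labelled UA, taken as upstream antisense, and 1, in *Grip1*, was labelled exonI, taken as an internal exon, a label that 3.08% of all listed genes had. None of the 9 genes had a PAS labelled exon3ext, downstream of the annotated end, which 12.2% of all listed genes had. No PAS of the members was listed under a second gene.

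**Figure D1:**
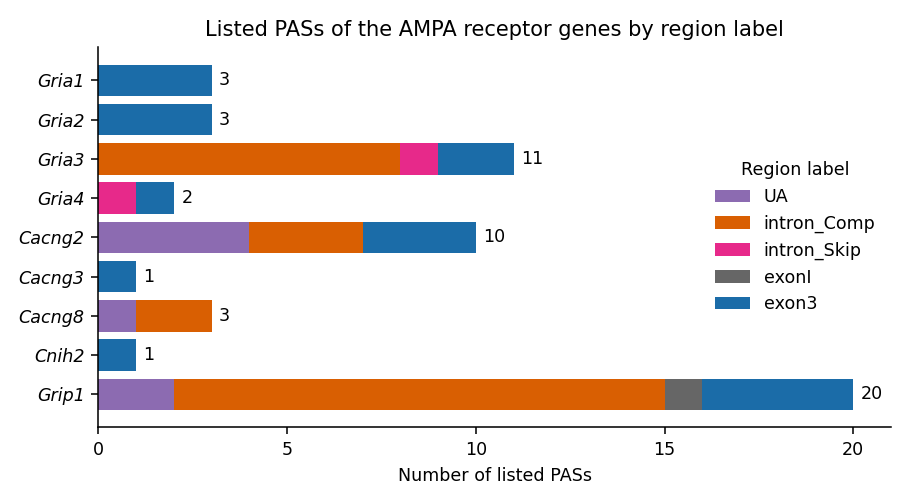
Number of listed PASs (x axis) of each of the 9 genes (y axis), with the bar divided by region label and the total at its end. *Grip1*, *Gria3* and *Cacng2* had 20, 11 and 10 PASs and the other genes 1 to 3, and *Cacng8* is the gene without an exon3 PAS.

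The 3′UTR sites were considered first. Of the 8 members with an exon3 PAS, 5 had 2 or more, which allows 3′UTR isoforms of more than 1 length, where 49.5% of all genes with an exon3 PAS had 2 or more. These were *Gria1*, *Gria2*, *Gria3*, *Cacng2* and *Grip1*. In these genes the outermost exon3 PASs lay 534 to 2759 nt apart with a median of 1557 nt, against a median of 817 nt over all 7465 genes with such a distance. The neighbouring exon3 PASs of the members formed 10 pairs, whose distances ranged from 67 to 2047 nt with a median of 546 nt. The median over all 16203 such pairs in the list was 259 nt. With 5 genes these medians are a description, and nothing was tested.

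*Gria2* encodes the subunit whose RNA-edited form makes the channel impermeable to calcium. It had the widest spread of 3′UTR sites among the members (Ensembl identifier ENSMUSG00000033981.14). Its 3 PASs, all labelled exon3, were on the minus strand of chromosome 3 and, from upstream to downstream, lay at 80491713, 80489951 and 80488954 in the list's own coordinates. The second lay 1762 nt beyond the first, and the last a further 997 nt downstream, so that the outermost were 2759 nt apart. Over all genes with 2 or more exon3 PASs, 88.1% had a shorter span.

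*Gria1* (ENSMUSG00000020524.16) encodes GluA1, whose delivery to the synapse and phosphorylation have been tied to LTP. Like *Gria2*, it was listed with 3 PASs that were all labelled exon3. They were on the plus strand of chromosome 11 at 57141492, 57143539 and 57143746. The first was set apart by 2047 nt, the largest gap between neighbouring exon3 PASs of the members, and the other pair was 207 nt apart. The span of 2254 nt exceeded that of 82.6% of the genes. In both genes the first gap was thus the wider one.

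*Gria3* (ENSMUSG00000001986.16), on the plus strand of chromosome X, had 2 exon3 PASs, at 39030218 and 39031775, which were 1557 nt apart. *Gria4* (ENSMUSG00000025892.16), on the minus strand of chromosome 9, had a single one, at 4417896. The list thus held no choice among PASs of the 3′-most exon for *Gria4*. Among the subunits, then, *Gria4* was the gene without 2 exon3 PASs.

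The auxiliary genes had shorter spans. *Cacng2* (ENSMUSG00000019146.2), on the minus strand of chromosome 15, had exon3 PASs at 77825172, 77825002 and 77824193, with distances of 170 and 809 nt between them and a span of 979 nt. *Grip1* (ENSMUSG00000034813.17), on the plus strand of chromosome 10, had 4, at 119513671, 119513855, 119514138 and 119514205. They followed each other at 184, 283 and 67 nt and spanned 534 nt, so the gene with the most PASs had the narrowest group of 3′UTR sites. *Cacng3* (ENSMUSG00000066189.9) and *Cnih2* (ENSMUSG00000024873.7) each had a single PAS in the whole list, labelled exon3. The PAS of *Cacng3* was on the plus strand of chromosome 7 at 129912903, and that of *Cnih2* was on the minus strand of chromosome 19 at 5092873.

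**Figure D2:**
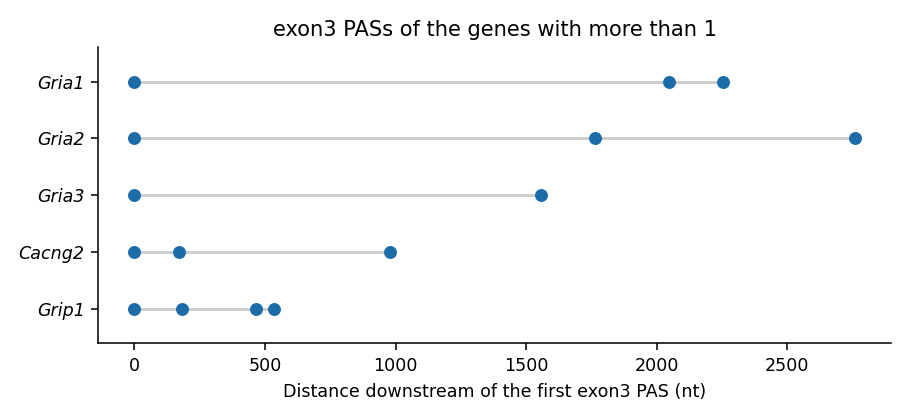
Position of each exon3 PAS (points) in nt downstream of the first exon3 PAS of its gene (x axis) for the 5 genes with more than 1 (y axis). The gap after the first PAS is 2047 nt in *Gria1* and 1762 nt in *Gria2*, whereas all 4 PASs of *Grip1* lie within 534 nt.

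**Figure D3:**
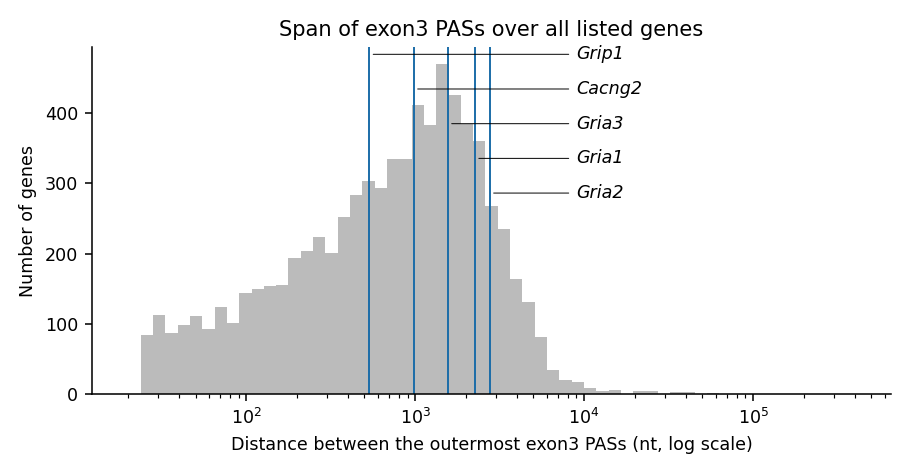
Distribution over all 7465 genes of the distance between the outermost exon3 PASs in nt on a log scale (x axis; y axis, number of genes), with vertical lines at the 5 members. *Gria1* and *Gria2*, at 2254 and 2759 nt, lie to the right of the peak, and *Grip1*, at 534 nt, lies below the median of 817 nt.

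Intronic PASs were listed for 5 of the 9 members, *Gria3*, *Gria4*, *Cacng2*, *Cacng8* and *Grip1*, where 33.5% of all listed genes had one. They made up 28 of the 46 PASs labelled as intronic or exon3, or 60.9% (95% Wilson interval 46.5% to 73.6%, which covers counting error only), against 32.7% over the whole list. Each site counts once in this share, whatever its number of reads. The paper reports far fewer PASs, kept after limits on read number and relative abundance, and a much smaller share of them in introns. No such limits were applied here, so many of the 56204 entries of the list may fall below them. How many of the members' sites would pass was not examined, and the counts and shares given here may rest on rarely used sites. The share rested on *Grip1* and *Gria3*, which held 22 of the 28 intronic PASs (78.6%). It was 33.3%, or 6 of 18, over the other 7 genes. The intronic PASs of the 4 members that also had an exon3 PAS lay 14.1 to 269 kb upstream of the first exon3 PAS, with a median of 65.3 kb over 26 sites. *Grip1* and *Gria3* held 22 of these sites, and the median was 17.7 kb over the 3 of *Cacng2*. Over the 12833 intronic PASs in the list that lay upstream of the first exon3 PAS of their gene, the median was 20.4 kb. Gene length was not matched in this comparison, and the 4 members are 128 to 633 kb long.

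*Grip1* had 13 intronic PASs, all labelled intron_Comp, and 74 genes of the list had 13 or more. They were spread over 221860 nt, from 119269814 to 119491674. The distances to the first exon3 PAS were 22.0 kb for the nearest and 244 kb for the farthest, with a median of 96.1 kb. They did not form a single group. A stretch of 103744 nt without any listed PAS separated the second of them, at 119276244, from the exonI PAS at 119379988, and a close pair, at 119382048 and 119382454, lay 406 nt apart.

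*Gria3* had 9 intronic PASs, and 253 genes had as many or more. They fell into separate stretches of the gene. The first stretch held the sites at 38761096, 38775819 and 38777425, which were 253 to 269 kb upstream of the first exon3 PAS. No PAS was listed over the next 193773 nt. The sites at 38971198 and 38981663 followed, 59.0 and 48.6 kb upstream. The remaining 4 sites lay within 433 nt, at 39007595, 39007711, 39007893 and 39008028, some 22 kb before the exon3 PASs. The last of these was labelled intron_Skip and the others intron_Comp. A group of this size within 500 nt was not found in any other member. That limit was chosen after the positions were seen.

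*Gria4* had 1 intronic PAS, at 4477580, 59684 nt upstream of its exon3 PAS, and it was labelled intron_Skip. Among the members, *Gria3* and *Gria4* were the genes with this label, which 5.82% of all listed genes had. In *Cacng2*, intron_Comp PASs were listed at 77912534, 77842905 and 77839290, which lay 87.4, 17.7 and 14.1 kb upstream of the first exon3 PAS. *Gria1*, *Gria2*, *Cacng3* and *Cnih2* had no intronic PAS in the list, and every PAS listed for them was labelled exon3.

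*Cacng8* (ENSMUSG00000053395.15), which encodes the regulatory protein known for its high level in the hippocampus, was the member without an exon3 PAS. Its intron_Comp PASs were on the plus strand of chromosome 7 at 3395295 and 3395381, 86 nt apart. A further PAS, labelled UA, was at 3391938. Of all listed genes, 9.33% had no exon3 PAS, and 3.8% had an intronic PAS but none labelled exon3, exon3ext, exon53 or exon53ext. The next listed PAS in the same direction of transcription was an intron_Comp PAS of *Cacng6*, the neighbouring gene of the same family, 34229 nt downstream. An intronic PAS set can therefore be formed for *Cacng8* from the list, but no 3′UTR PAS set to compare it with. The absence is one of the list and does not show that the mRNA ends only in an intron. Why no exon3 PAS is listed was not tested.

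**Figure D4:**
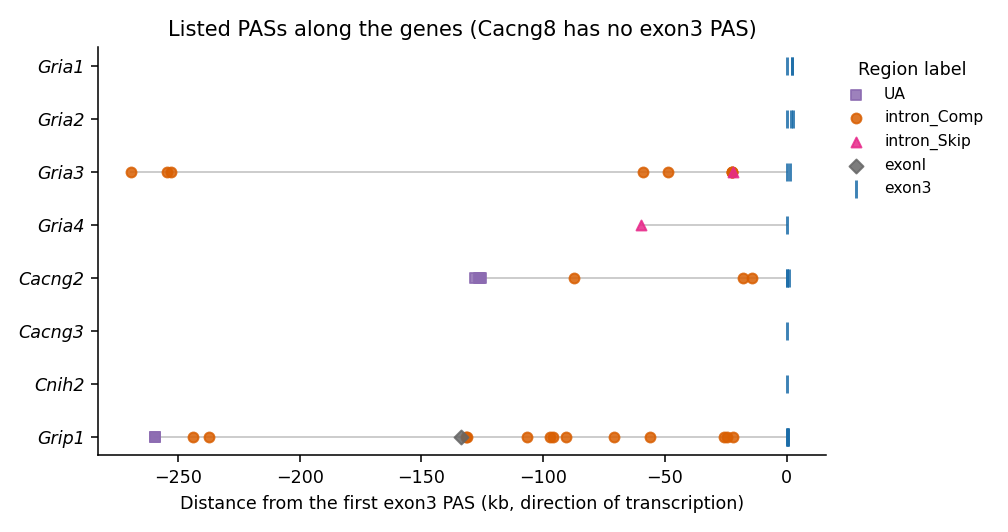
Position of each listed PAS in kb from the first exon3 PAS of its gene in the direction of transcription (x axis) for the 8 genes with an exon3 PAS (y axis), with symbols for the region label and a line from the most upstream PAS to the first exon3 PAS. The intronic PASs of *Grip1* are spread between 22.0 and 244 kb upstream, and those of *Gria3* lie in separate groups with the farthest at 269 kb.

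Intronic PASs were more frequent in long genes throughout the list. The annotated gene length in GENCODE M21 was found for 15012 of the listed genes (90.3%). An intronic PAS was listed for 12.3% of the genes of up to 10 kb, 30.2% of those over 10 and up to 30 kb, 43.3% of those over 30 and up to 100 kb, 54.8% of those over 100 and up to 300 kb and 62.9% of the 498 genes over 300 kb. *Grip1* was the longest member by this annotation, at 633 kb. Its 13 intronic PASs compare with a median of 1 and a 75th percentile of 5 in the longest class. The list's labels may rest on a shorter model of *Grip1*, which was not tested. Its UA PASs lay 259 to 260 kb upstream of its first exon3 PAS. The class of that length, over 100 and up to 300 kb, had a median of 1 and a 75th percentile of 2. *Gria3*, of 278 kb, had 9, against a median of 1 and a 75th percentile of 2 in its class. Length did not order the members, however. *Gria4* (378 kb) had 1 intronic PAS and *Gria1* (319 kb) had none, while *Cacng8* (24.97 kb) had 2. *Gria2* (121 kb) had none and *Cacng2* (128 kb), of nearly the same length, had 3.

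**Figure D5:**
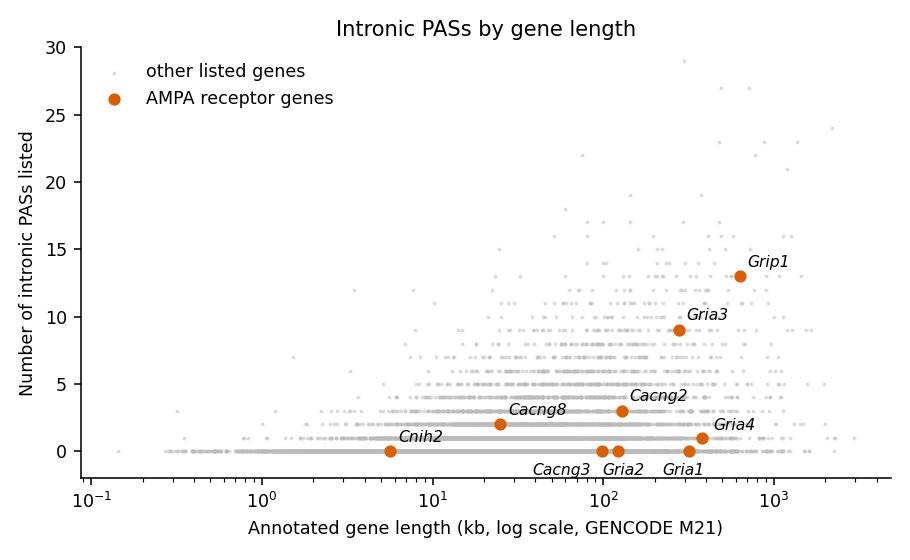
Number of intronic PASs listed per gene (y axis) against annotated gene length in kb on a log scale (x axis) for the 15012 genes with a length, with the 9 members in orange and named. *Grip1* (13) and *Gria3* (9) lie high for their length, and *Gria1* and *Gria2* lie at 0.

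Upstream antisense PASs mark transcripts that start near a promoter and run away from the gene. They were listed for 3 of the 9 members, *Cacng2*, *Cacng8* and *Grip1*, where 13.8% of all listed genes had one. None of the subunit genes *Gria1* to *Gria4* was among them. In all 7 cases the strand in the site's name was the reverse of the gene's strand. *Cacng2* had 4 UA PASs, at 77953061, 77951452, 77951177 and 77950861, within 2200 nt, and 189 genes of the list had 4 or more. The UA PASs of *Grip1* were 137 nt apart, at 119254070 and 119254207, and the latter lay 15607 nt upstream of the first intronic PAS of the gene.

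Other proteins tied to AMPA receptors, such as further auxiliary subunits, PDZ proteins and synaptic organizers, were counted in the same way. The set also held *Neto1*, better known as an auxiliary protein of kainate receptors. Of the 28 genes of the set, 25 were listed, and *Cnih1*, *Shisa8* and *Frrs1l* were not found under these symbols. All 25 had an exon3 PAS, and 10 of them had 2 or more, with a median span of 1680.5 nt. An intronic PAS was listed for 6 of the 25 and a UA PAS for 1, *Cacng4*. Intronic sites made up 32.4% of their intronic and exon3 PASs, and *Neto1* held 8 of the 22 intronic ones. Among the closest relatives of the members, *Cacng7* and *Grip2* had 1 PAS each, *Cnih3* had 2 and *Cacng5* had 3, all labelled exon3, and *Cacng4* had 8, of which 4 were intronic and 3 were UA. *Grip2*, the paralog of *Grip1*, thus had 1 PAS where *Grip1* had 20.

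The 12 genes of the NMDA and kainate receptor subunits were all listed. An intronic PAS was listed for 8 of them (66.7%) and a UA PAS for 6 (50.0%), against 33.5% and 13.8% of all listed genes. Intronic sites made up 72.6% of their 62 intronic and exon3 PASs, against 60.9% for the members and 32.7% over the whole list. Of these genes, 3 had no exon3 PAS, *Grin2a*, *Grin2d* and *Grin3a*, which had 9, 6 and 13 of the 45 intronic PASs. The listing of intronic sites without an exon3 site, seen in *Cacng8*, was therefore also found among other glutamate receptor genes. Its source was not tested in these genes either. Of the 9 with an exon3 PAS, 4 had 2 or more (44.4%), against 5 of 8 members and 49.5% of all genes with an exon3 PAS. These counts are a description of the list, and no difference between the groups of genes was tested.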

How the data were processed

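By 3′READS+, transcript ends were sequenced in 12 libraries. The study's methods name bowtie 2 as the aligner. A PAS is a cluster of cleavage positions up to 24 nt apart, called from reads whose leading Ts (at least 2) are absent from the genome and so stem from a poly(A) tail. The build mm9 is named in the submitters' processing notes. The table deposited by the authors gives the gene symbol, strand, position and region label of each PAS. Its 12 columns of read numbers have names that match no sample label. They could be given to samples only by their order or totals, so they were not used. Depth per library and differences after LTP were therefore not analysed here.

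Rows were taken by gene symbol and counted with pandas 2.3.3 and numpy 2.4.6 under Python 3.11.15, intervals came from scipy 1.17.1 and plots from matplotlib 3.10.9. Counting was tested on simulated lists. Gene lengths and transcript ends came from GENCODE M21 (GRCm38), and no coordinate was converted. Protein identity was not analysed here. All 9 members are named. Other genes are named from lists where 5 or fewer share a count, apart from *Cacng4*, *Cacng5*, *Cacng7*, *Grip2*, *Cnih3*, *Neto1* and *Cacng6*, which were chosen after their values were seen. Members and lists were chosen with earlier results of these data known.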

Additional observations from a re-analysis of the deposited data

How the results depend on the processing

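The 54 PASs of the members became 47 without those labelled UA, and were 54 without PASs listed under more than 1 gene and with PASs of the same label 24 or 50 nt or less apart merged. These last settings could not alter the number, since no member shares a PAS with another gene or has PASs that close, and they say nothing of its stability. With exon3ext counted as 3′UTR, the 5 genes with 2 or more 3′UTR PASs and the spans of all of them kept their values, since no member has that label. Genes with an intronic PAS went from 5 to 4 with intron_Comp alone, the setting that leaves out *Gria4*. The intronic share of 60.9% was 51.9% over all region labels. Leaving out genes was chosen after seeing the data, and gave 51.7% without *Grip1*, 54.3% without *Gria3* and 33.3% without both. Both genes were picked for their many intronic PASs, so a fall was bound to follow. The counting interval treats the sites as independent and is no measure for these shares. No paired analysis was possible because no column name ties read numbers to an animal or a group. Since the read numbers were not used, rarely and often used sites count alike here.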
